A study of Mus musculus with 22 samples.

Results

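The glucocorticoid receptor gene Nr3c1 and 6 genes long known to be induced through it, Fkbp5, Tsc22d3, Sgk1, Errfi1, Cebpb and Cebpd, were followed in β-cells of fasted and refed mice. They are 7 of the 52327 genes in the deposited count table, were taken as a set from what is known of the receptor, with earlier results of these counts in view, and all 7 passed the expression filter (14064 genes did). Of the 7, Sgk1 was higher after refeeding in both control mice and mice treated with diphtheria toxin (DT), by 4.65-fold and 5.22-fold. Errfi1 was higher after refeeding in DT mice, by 1.91-fold, a call that was lost without mouse 15 and in a fit on DT mice alone. Refeeding called 1 of the 7 in control mice, where 23.3% of all tested genes passed, and 2 of the 7 in DT mice, where 24.4% did, so these shares are near the background. Of the 7, 0 differed between DT and control mice, fasted or refed, at an adjusted p under 0.05, beside 0.0284% and 0.0356% of all tested genes. Between mice of the same group Fkbp5 differed up to 13.3-fold and Cebpd up to 33.5-fold, and Cebpb ran from 1 to 182 counts among fasted DT mice.

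β-cells were sorted by flow cytometry from the pancreas of male mice of mixed background, aged 3 months. Every mouse, controls included, carried the receptor for diphtheria toxin under the alleles GluDTR+, SstDTR htz and PpyDTR htz, named for glucagon, somatostatin and pancreatic polypeptide, the hormones of α-, δ- and γ-cells. The toxin kills cells that bear this receptor, so DT mice lose these cell types, and mice were taken 1 month after ablation. The 4 groups were control mice after an 8-hour fast (n = 5), DT mice after the same fast (n = 6), control mice after the fast and 2 hours of refeeding (n = 5) and DT mice after the fast and 2 hours of refeeding (n = 6). The labels leave unsaid whether controls received an injection. No mouse number is repeated among the labels, so 1 library stands for 1 mouse and the p-values measure the spread between mice.

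Glucocorticoids are steroid hormones of the adrenal cortex. In the cell they bind the glucocorticoid receptor, which is held ready by heat shock protein chaperones, then moves to the nucleus and acts on genes at glucocorticoid response elements. Its induced genes include brakes on the response itself and regulators of inflammation, kinase signalling and ion transport, and in β-cells glucocorticoids are known for lowering insulin secretion. Several of these genes also answer other signals: Sgk1 responds to serum and insulin, Errfi1 to growth factors, and Cebpb and Cebpd to cAMP and inflammatory signals. The counts do not tell these inputs apart.

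The libraries held 16584117 to 24988880 counts. Ins1 and Ins2 took 40.3% to 69.4% of them, and all 10 β-cell markers of the list passed the expression filter. The summed level of 10 acinar markers ran from 53.0 to 27291 CPM (read counts divided by the TMM-scaled library size) and that of 10 immune markers from 8.18 to 403 CPM. Of 6 endothelial markers 2 passed the filter, while Cdh5, Kdr, Flt1 and Emcn did not, and the summed level of the 6 ran from 0 to 5.93 CPM. Refed DT mouse 13 stood apart in its insulin share (69.4%) and refed DT mouse 20 in its immune markers (403 CPM). Calls below that rest on a single mouse are given with and without it.

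Sequence before the transcript start was available from RefSeq (build GRCm38.p6) for 5 of the 7 genes, with 13 windows of 250 bases ending just before a start. 5 patterns were searched on both strands: the palindromic glucocorticoid response element (AGAACA and TGTTCT with 3 bases between them), its hexamer AGAACA alone, the cAMP response element TGACGTCA, its core TGACG, and the C/EBP site TTGCGCAA. The hexamer and the core lie within the whole elements, so their matches overlap. The palindrome was present in 3 of 32851 windows of this length (0.00913%), the hexamer AGAACA in 16.1%, TGACGTCA in 1.55%, TGACG in 17.8% and TTGCGCAA in 0.164%. The 4 windows below, 1 for each gene with a match, were picked as those with the longest pattern or the glucocorticoid hexamer, with the matches in capitals. Not shown are Sgk1 windows 1 and 4, each with the hexamer, and Sgk1 window 2 and Tsc22d3 window 3, each with TGACG.
Sgk1, window 5 of 6 (chr10:21993640-21993889, plus strand): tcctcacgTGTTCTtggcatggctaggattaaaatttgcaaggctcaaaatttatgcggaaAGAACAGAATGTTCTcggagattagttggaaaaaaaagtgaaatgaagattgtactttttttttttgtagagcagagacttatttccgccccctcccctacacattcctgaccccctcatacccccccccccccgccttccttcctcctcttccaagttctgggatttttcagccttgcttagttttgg
Errfi1, window 2 of 2 (chr4:150854820-150855069, plus strand): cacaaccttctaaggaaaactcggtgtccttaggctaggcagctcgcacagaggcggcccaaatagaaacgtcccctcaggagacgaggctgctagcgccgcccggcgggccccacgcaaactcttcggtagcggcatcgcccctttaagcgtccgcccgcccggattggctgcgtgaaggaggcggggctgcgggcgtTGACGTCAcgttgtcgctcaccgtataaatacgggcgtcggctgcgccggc
Tsc22d3, window 2 of 3 (chrX:140600523-140600772, minus strand): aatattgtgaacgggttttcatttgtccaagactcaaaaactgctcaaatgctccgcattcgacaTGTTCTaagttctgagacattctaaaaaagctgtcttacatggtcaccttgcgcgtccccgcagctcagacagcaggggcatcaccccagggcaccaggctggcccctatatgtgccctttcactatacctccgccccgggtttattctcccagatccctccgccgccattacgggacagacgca
Cebpb, its single window (chr2:167688665-167688914, plus strand): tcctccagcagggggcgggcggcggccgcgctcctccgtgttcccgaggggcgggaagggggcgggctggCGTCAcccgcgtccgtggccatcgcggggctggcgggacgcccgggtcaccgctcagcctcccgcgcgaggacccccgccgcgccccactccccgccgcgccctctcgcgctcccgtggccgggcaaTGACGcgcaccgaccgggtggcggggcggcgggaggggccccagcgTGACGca
In the Sgk1 window the palindrome lay at bases -189 to -175 from the start, with a further hexamer at -242 to -237. The Errfi1 window held the whole cAMP response element at -51 to -44. The Tsc22d3 window held the glucocorticoid hexamer once, at -185 to -180, and the Cebpb window held TGACG or its complement at 3 places. The Cebpb window was 81.6% G and C, against 44.8% for the Sgk1 window. The Fkbp5 window (chr17:28486150-28486399, minus strand) held none of the 5 patterns. A match is a string of letters and not evidence of binding, and the counts, which are summed per gene, do not say which of several starts was used.

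Nr3c1 encodes the receptor itself (GRCm38 chromosome 18, 39410545 to 39519421, minus strand, 13 merged exon blocks). Its levels were 51.6, 50.3, 42.4, 64.5 and 45.2 CPM in fasted control mice 1 to 5, and 60.4, 43.5, 51.6, 64.4 and 58.7 CPM in refed control mice 12, 18, 19, 21 and 22. In fasted DT mice the lowest, median and highest levels were 41.8, 47.0 and 51.4 CPM, and in refed DT mice 36.1, 46.8 and 49.6 CPM. The 4 ranges overlapped, and the lowest value of all was that of mouse 13.
Refed DT mice averaged 45.0 ± 4.99 CPM (SD, n = 6) and refed control mice 55.7 ± 8.26 CPM (n = 5), a log2 fold change of -0.31 ± 0.12 (SE) that did not pass the test over all genes (edgeR quasi-likelihood, adjusted p = 0.351). Without mouse 13 this change was -0.24. In these bulk samples fewer cells of a type and less RNA per cell cannot be told apart. The averaged DT effect was -0.20 ± 0.08 (edgeR adjusted p = 0.318). Refeeding moved the mean by log2 0.13 ± 0.12 in control mice and -0.07 ± 0.11 in DT mice, and the latter was 0.05 without mouse 13. Within groups Nr3c1 was among the steadier genes: its SD of log2 CPM was 0.19, and 10.1% of tested genes had a smaller one.

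Fkbp5 encodes an immunophilin that binds the receptor complex and lowers its affinity for hormone, a feedback brake (chromosome 17, 28399094 to 28517527, minus strand). Among fasted control mice, mice 1, 2 and 3 had 124, 92.6 and 132 CPM, and mice 4 and 5 had 20.3 and 23.6 CPM. Among fasted DT mice, mice 6, 7 and 8 had 19.8, 14.7 and 16 CPM, and mice 9, 10 and 11 had 94.9, 94.7 and 195 CPM. So the fasted mice fell into a low and a high set, and both sets held control and DT mice.
Refed control mice 12, 18, 19, 21 and 22 had 52.4, 55.7, 47.7, 15 and 35.0 CPM. Refed DT mice 13, 16 and 20 had 28.4, 11.8 and 22.1 CPM, and mice 14, 15 and 17 had 85.8, 90.6 and 83.5 CPM. Their median of 56.0 CPM thus lay in a gap between a low and a high set. These refed levels covered the gap between the low and the high fasted mice. With such spread 0 of the comparisons passed: log2 fold changes were -0.11 ± 0.69 for DT in fasted mice, 0.38 ± 0.70 for DT in refed mice, -0.93 ± 0.73 for refeeding in control mice and -0.44 ± 0.66 for refeeding in DT mice, with edgeR adjusted p from 0.398 to 0.984. The 95% interval of the fasted DT effect ran from -1.56 to 1.34, so changes of more than 2-fold either way were within it. The SD of log2 CPM within groups was 1.29, larger than that of 94.8% of tested genes. Counts per library were 247 to 4824, so the spread is far above counting error.

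Tsc22d3 encodes GILZ, a leucine zipper protein that carries much of the anti-inflammatory action of glucocorticoids (chromosome X, 140539528 to 140600659, minus strand). It had 22, 22, 20.8, 23.2 and 20.1 CPM in fasted control mice and 23.0, 15.3, 19.2, 17.9 and 21.4 CPM in refed control mice. Fasted DT mice had a lowest, median and highest level of 15.8, 20.04 and 22.4 CPM, and refed DT mice of 13.5, 17.4 and 22.4 CPM. All 4 ranges overlapped, and group means lay between 17.6 and 21.6 CPM.
The 4 log2 fold changes were between -0.16 and -0.13, with SE of 0.12 or 0.13 and edgeR adjusted p of 0.351 to 0.866. The 95% intervals went no further than -0.44 and 0.14. Without mouse 13 the DT effect in refed mice was -0.05 and the refeeding value in DT mice -0.03. Like Nr3c1 the gene was steady, with a within-group SD of log2 CPM of 0.19 (11.9% of genes had a smaller one). Tsc22d3 and Fkbp5 are both textbook targets of the receptor, and within the fasted mice one stayed between 15.8 and 23.2 CPM while the other ran from 14.7 to 195 CPM.

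**Figure D1:**
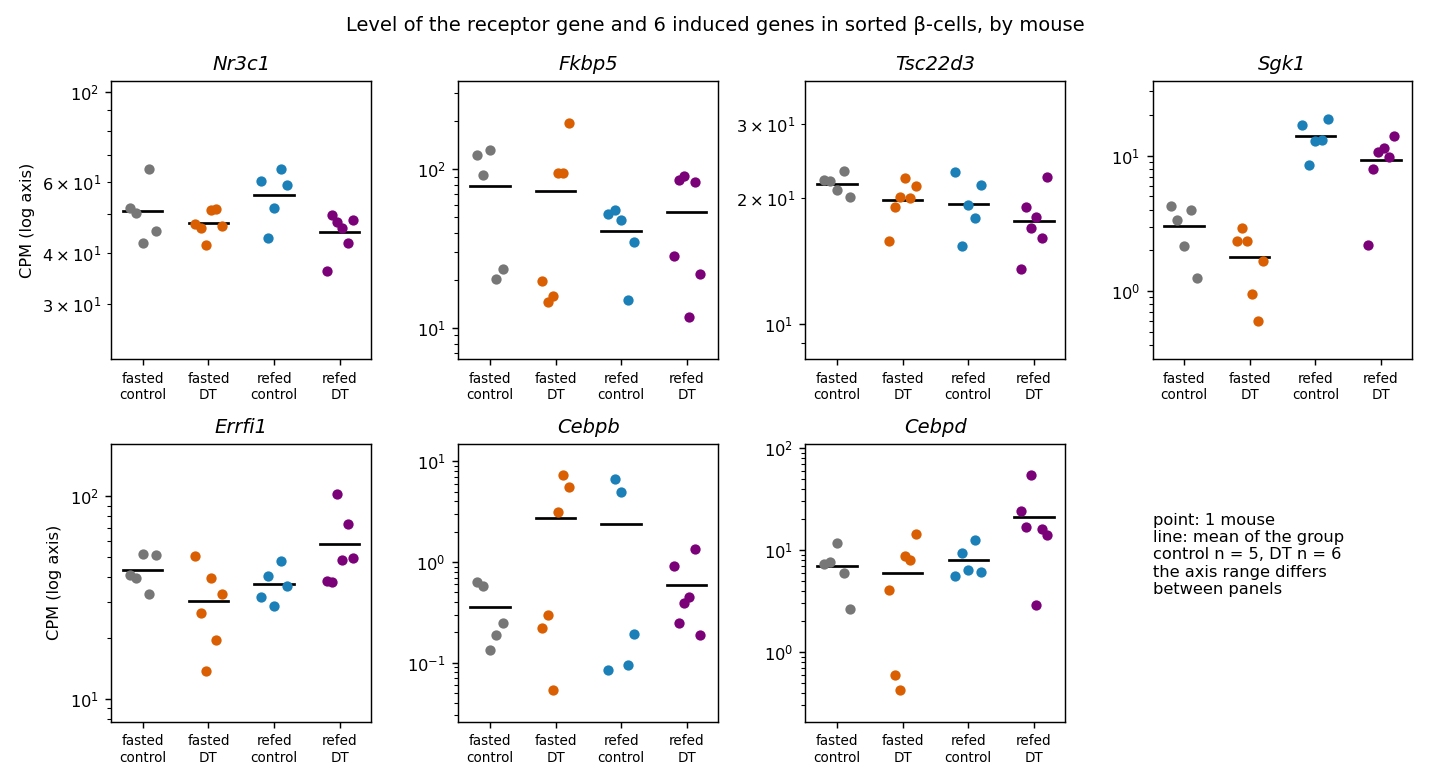
Level of each gene in every mouse, in CPM on a log axis, for the 4 groups; points are mice and lines are group means. Sgk1 separates fasted from refed mice except for refed DT mouse 13 at 2.19 CPM, while Fkbp5, Cebpb and Cebpd spread widely inside groups and Nr3c1 and Tsc22d3 stay narrow.

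Sgk1 encodes a serum- and glucocorticoid-regulated kinase that acts downstream of insulin signalling on ion channels and transporters (chromosome 10, 21882184 to 21999903, plus strand). Fasted control mice 1 to 5 had 4.24, 3.38, 2.17, 3.98 and 1.25 CPM, and fasted DT mice ran from 0.601 through a median of 1.99 to 2.92 CPM. Refed control mice 12, 18, 19, 21 and 22 had 16.8, 8.59, 12.9, 13 and 18.6 CPM, and refed DT mice ran from 2.19 through 10.2 to 13.8 CPM. Every refed control mouse was above every fasted control mouse. In DT mice 5 of 6 refed mice (8.00 CPM or more) were above all fasted mice, and mouse 13 (2.19 CPM) was within the fasted range.
In control mice Sgk1 rose from 3.00 ± 1.26 CPM (n = 5) to 14 ± 3.9 CPM (n = 5), log2 2.22 ± 0.43 (edgeR adjusted p = 0.000724). In DT mice it rose from 1.80 ± 0.895 CPM (n = 6) to 9.29 ± 3.97 CPM (n = 6), log2 2.38 ± 0.40 (edgeR adjusted p = 0.000197), and 2.65 without mouse 13. It stayed past the threshold with each of the 22 mice left out in turn, with log2 values of 2.02 to 2.39 and 2.20 to 2.65. The responses of control and DT mice differed by log2 0.17 ± 0.56 (95% interval -1.01 to 1.35) and did not pass the test (adjusted p = 0.985). DT mice had lower means in both feeding states, with log2 -0.75 ± 0.41 fasted (edgeR adjusted p = 0.666) and -0.58 ± 0.39 refed (adjusted p = 0.640). Neither passed the test over all genes, and the refed value was -0.37 without mouse 13. The DT effect averaged over feeding was -0.66 ± 0.28 (95% interval -1.26 to -0.07, edgeR unadjusted p = 0.028, adjusted p = 0.349) and did not pass either.

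Errfi1 encodes MIG6, an inhibitor of the EGF receptor kinase (chromosome 4, 150853919 to 150868892, plus strand). Fasted control mice had 40.7, 39.6, 52.1, 32.8 and 51.2 CPM and refed control mice 31.9, 40.3, 28.7, 47.8 and 36.1 CPM. Fasted DT mice ran from 13.7 through a median of 29.7 to 50.8 CPM, and refed DT mice from 37.7 through 48.9 to 103 CPM. Fasted and refed ranges overlapped in both. The 2 highest values of all 22 mice were those of refed DT mice 15 (103 CPM) and 17 (72.8 CPM).
In DT mice Errfi1 rose from 30.5 ± 13.6 CPM (n = 6) to 58.2 ± 25.2 CPM (n = 6), log2 0.93 ± 0.28 (edgeR adjusted p = 0.0166). The call was lost without mouse 15 (log2 0.69, adjusted p = 0.0545) and in a fit on DT mice alone (0.93, adjusted p = 0.0626). Mouse 15 also had the highest acinar marker sum, 27291 CPM. That sum, with 9 of 10 markers past the filter, ran from 81.1 to 15782 CPM in fasted DT mice and from 53.0 CPM up in refed DT mice, and the part of acinar RNA in its Errfi1 level was not tested. In control mice the change was -0.23 ± 0.30 (adjusted p = 0.633). The difference between the responses of DT and control mice was log2 1.16 ± 0.41, with an unadjusted edgeR p of 0.00925 and an adjusted p of 0.590, so it did not pass over all genes. Between DT and control mice the log2 values were -0.51 ± 0.29 fasted and 0.66 ± 0.29 refed, with edgeR adjusted p of 0.679 and 0.448.

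Cebpb encodes a basic leucine zipper factor of inflammation and metabolism (chromosome 2, 167688915 to 167690418, plus strand, a single exon). Its mean log2 CPM over all libraries was the lowest of the 7 genes, although in fasted DT mice it averaged 2.75 CPM and Sgk1 1.80 CPM. Its counts were 13, 10, 3, 4 and 6 in fasted control mice and 2, 147, 106, 2 and 3 in refed control mice. In fasted DT mice 6 to 11 they were 4, 5, 1, 70, 182 and 136, and in refed DT mice they ran from 4 to 27. The 5 mice with 70 counts or more were fasted DT mice 9, 10 and 11 and refed control mice 18 and 19, and the other 17 had at most 27.
The log2 fold changes were correspondingly large and uncertain: 2.96 ± 1.18 for DT in fasted mice, -2.05 ± 1.08 for DT in refed mice, 2.75 ± 1.20 for refeeding in control mice and -2.25 ± 1.06 for refeeding in DT mice, with edgeR adjusted p of 0.504, 0.546, 0.105 and 0.129. Refeeding in control mice passed with DESeq2 (2.77, adjusted p = 0.0353), and the 2 refed control mice with over 100 counts were mice 18 and 19. The spread within groups (SD of log2 CPM 1.87) was above that of 99.1% of tested genes. Cebpb overlaps Tmem189 on the opposite strand by 312 bases, and reads of both cannot be told apart where the counting did not use strand.

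Cebpd encodes the related factor C/EBPδ, a fast responder to glucocorticoids and cytokines (chromosome 16, 15887286 to 15891031, plus strand, a single exon). Fasted control mice had 7.23, 7.57, 11.6, 5.92 and 2.67 CPM and refed control mice 5.58, 9.31, 6.44, 12.6 and 6.15 CPM. Fasted DT mice ran from 0.424 (mouse 8) through a median of 6.08 to 14.2 CPM, and refed DT mice from 2.86 through 16.3 to 53.9 CPM (mouse 15). Of the 6 refed DT mice, 5 were above every refed control mouse and mouse 16 was below all of them.
In DT mice the mean was 6.01 ± 5.34 CPM fasted and 21.2 ± 17.4 CPM refed, a log2 fold change of 1.81 ± 0.66 at the edge of the threshold (edgeR adjusted p = 0.0511). With 1 mouse left out it lay between 1.276 (without mouse 15) and 2.26 (without mouse 11), and it passed without mouse 4, 11 or 16, with DESeq2 (1.90, adjusted p = 0.0172) and with RLE (adjusted p = 0.0403) and upper-quartile scaling (0.0412). In control mice it was 0.20 ± 0.71 (adjusted p = 0.878), and the difference between the responses was 1.61 ± 0.96 (adjusted p = 0.776). Refed DT against refed control mice gave 1.4 ± 0.69 (adjusted p = 0.510). Cebpd overlaps Spidr on the opposite strand by 562 bases, with the same limit as for Cebpb.

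**Figure D2:**
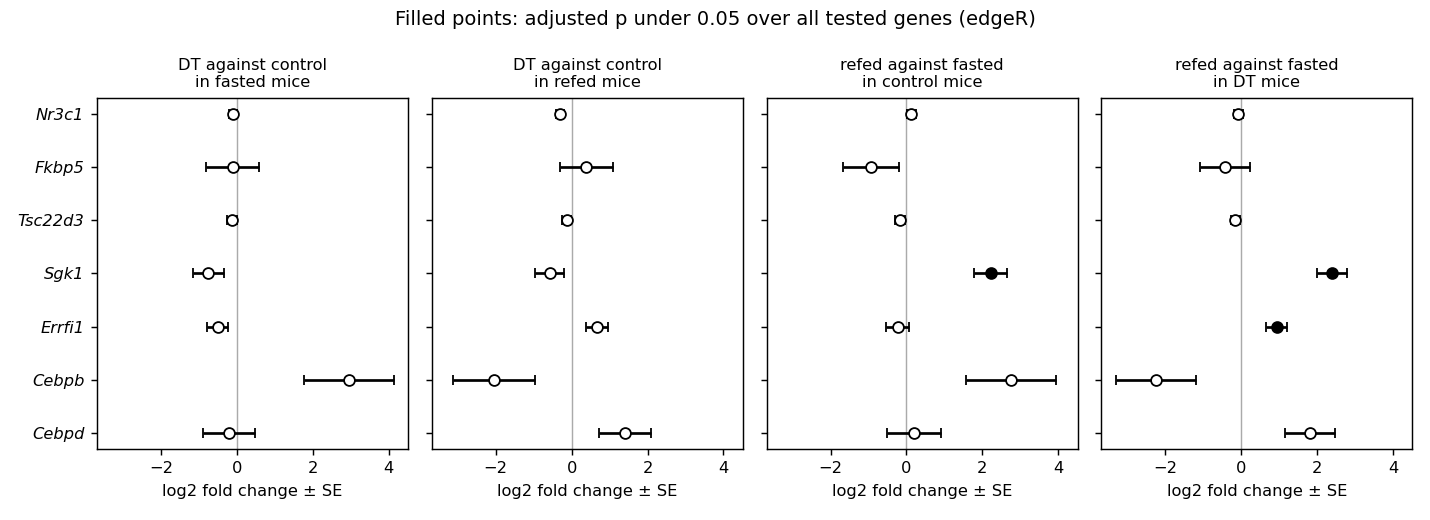
Log2 fold change of the 7 genes with its SE (bars) in the 4 pairwise comparisons; filled points passed an adjusted p of 0.05 over all tested genes. Sgk1 is filled in both feeding comparisons (2.22 and 2.38) and Errfi1 in DT mice (0.93), and all points of the DT comparisons are open.

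DT treatment called few genes of any kind, and 0 of these 7. At an unadjusted edgeR p under 0.05 the counts for fasted and refed mice were 1 of 7 (Cebpb) and 2 of 7 (Nr3c1 and Errfi1), beside 1172 and 1410 of the 14064 tested genes, and DESeq2 called 0 of 7 in each. The difference between the 2 DT effects passed in 0.00711% of genes and the averaged DT effect in 0.206%, again with 0 of the 7. In each, 2 of 7 had an unadjusted edgeR p under 0.05: Cebpb and Errfi1 for the difference, and Nr3c1 and Sgk1 for the average. Beside them, 1004 and 1678 of the 14064 tested genes had such a p. The median log2 fold change of the 7 was -0.13 for DT in fasted mice and -0.13 in refed mice, beside 0.01 and -0.004 over all genes. For refeeding it was 0.13 in control and -0.07 in DT mice, beside -0.04 and -0.06 over all genes.
Genes whose ranges did not overlap between groups were also counted. Of the 7 genes this held for 0 between DT and control mice, fasted (1.88% of tested genes) or refed (0.988%), for 1, Sgk1, between fed states in control mice (21.5%), and for 0 between fed states in DT mice (10.1%).

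Per kilobase of exon the order of the genes could be compared. In fasted control mice Errfi1 had 12.1 ± 2.30 CPM per kilobase, Fkbp5 8.29 ± 5.67, Nr3c1 6.62 ± 1.11, Tsc22d3 4.98 ± 0.271, Cebpd 1.87 ± 0.857, Sgk1 0.613 ± 0.258 and Cebpb 0.237 ± 0.153. In refed control mice Sgk1 stood at 2.85 ± 0.796 CPM per kilobase, above Cebpd at 2.14 ± 0.789, although the SD of these 2 overlap. Across the 4 groups the order of means was refed control, fasted control, fasted DT, refed DT for Nr3c1, and refed control, refed DT, fasted control, fasted DT for Sgk1. Between neighbours in these orders 0 of the ranges were apart, for any of the 7 genes.

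Relations from mouse to mouse were computed for 5 of the genes. For the 11 refed mice, control and DT mice were pooled. Sgk1, Tsc22d3 and Nr3c1 all had lower means in refed DT than in refed control mice (log2 -0.58, -0.13 and -0.31). These differences did not pass the test over all genes. Over the 11 mice, r and its permutation p therefore mix the group difference with the relation within groups. Within refed control mice alone r was not computed. Among refed mice Sgk1 went with Tsc22d3 (Pearson r = 0.81, permutation p = 0.00043, adjusted p = 0.0129, 11 mice; Spearman rho = 0.80, permutation p = 0.00444, adjusted p = 0.133) and with Nr3c1 (r = 0.80, permutation p = 0.00124, adjusted p = 0.0186; rho = 0.75, permutation p = 0.0117, adjusted p = 0.140), adjusted over the 30 relations computed. Tsc22d3 and Nr3c1 had r = 0.74 (permutation p = 0.00934, adjusted p = 0.0934; rho = 0.73, permutation p = 0.014, adjusted p = 0.140), and 0.83 without mice 13 and 21. Without the 2 mice farthest from the median of Tsc22d3 (12 and 13) or of Nr3c1 (13 and 21), r was 0.70 and 0.80. Within the 6 refed DT mice r was 0.80 and 0.85 (exact permutation p = 0.0514 and 0.0889). Without mice 13 and 20 the former was -0.46 and without mice 13 and 17 the latter was -0.51, so within that group the relations rest on those mice. Among fasted mice, with control and DT mice again pooled, the pairs of Sgk1 with Tsc22d3 and with Nr3c1 had r of 0.12 and 0.20 (permutation p = 0.736 and 0.558). Fkbp5 and Cebpb were left out of this comparison, since Cebpb, and Fkbp5 in fasted mice, fell into separate clusters of mice. In refed DT mice Fkbp5 also fell into a low and a high set, while the levels of refed control mice lay mostly between these. Its relations with the other genes in refed mice were not computed.

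The libraries also differed in the level of GC-rich against GC-poor genes. Each was given a GC score, the mean centred log2 level of the 1374 GC-richest genes (at least 58.1% GC) minus that of the 1375 poorest (at most 42.6%). The score was chosen after these data had been seen. In fasted mice it split in the same way as Fkbp5: the 5 mice with a score below 0 (-0.30 to -0.05) had 14.7 to 23.6 CPM of Fkbp5, and the 6 above 0 (0.16 to 0.36) had 92.6 to 195 CPM. Cebpd ran from 0.424 to 5.92 CPM in the former and from 7.23 to 14.2 CPM in the latter, whereas Nr3c1 (41.8 to 64.5 and 42.4 to 51.6 CPM) and Tsc22d3 (15.8 to 23.2 and 19.97 to 22.4 CPM) overlapped. Cebpb ran from 0.0529 to 0.298 CPM in the former and from 0.133 to 7.30 CPM in the latter. Fasted DT mice 9, 10 and 11, which had the high Cebpb counts of their group, were the fasted DT mice with a score above 0. Since the fasted mice form 2 clusters no correlation over all of them is given. How many of all tested genes separate these 2 clusters as Fkbp5 and Cebpd do was not counted. The split is therefore not shown to be particular to these genes.
Within the 6 fasted mice above 0, r of Fkbp5 with the score was 0.91 (exact permutation p = 0.0194, adjusted p = 0.272 over 14 relations; rho = 0.89, exact permutation p = 0.0333, adjusted p = 0.467), and 0.65 without mice 1 and 11. Among the 11 refed mice, control and DT mice pooled, r was 0.43 (permutation p = 0.195, adjusted p = 0.546) and rho was 0.21 (permutation p = 0.541, adjusted p = 0.919). Without mice 13 and 21 r was 0.63. The exons of Fkbp5 have 51.6% GC, those of Cebpd 48.9% and those of Cebpb 67.2%. All 7 genes were left out of the score.
With the score as a covariate in the edgeR fit, the refeeding values of Fkbp5 turned from -0.93 to 0.26 in control mice and from -0.44 to 0.50 in DT mice, and neither passed (adjusted p = 0.753 and 0.424). Cebpd after refeeding in DT mice then passed (2.37, adjusted p = 0.00708), as did Cebpb in control mice (3.84, adjusted p = 0.0135). What sets the score was not tested.

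**Figure D3:**
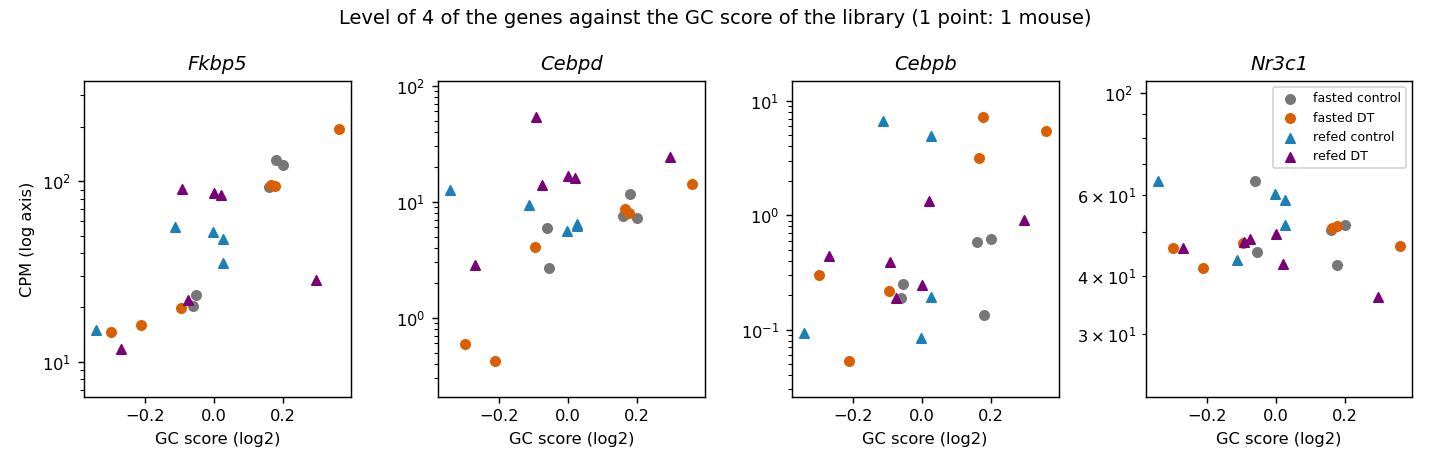
Level (CPM, log axis) of Fkbp5, Cebpd, Cebpb and Nr3c1 against the GC score of the library (log2 units), 1 point per mouse, circles fasted and triangles refed. Fasted mice form a low and a high set in both Fkbp5 (14.7 to 23.6 and 92.6 to 195 CPM) and score, while Nr3c1 stays between 36.1 and 64.5 CPM.

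The genes most like each of the 7 over the 22 libraries were found by Pearson's r of log2 CPM among 10186 genes above a mean level of 1 (log2 CPM); the libraries share 4 groups and differ in GC score, so r is a description. Fkbp5 was most like Gnai1 (r = 0.95), Ptprj (0.94) and Ccdc92b (0.94), and 304 genes had r above 0.8 with it. For Sgk1 the nearest were Idh3a (0.92), Pde4b (0.92) and Ppp2r1b (0.91), with 199 genes above 0.8. For Cebpb they were Lemd2 (0.95), Chaserr (0.95) and Eid2 (0.95), with 137 above 0.8, and for Cebpd Rab3ip (0.91) and Zfp622 (0.90), with 92. Tsc22d3 had 4 genes above 0.8, led by Txndc16 (0.82), Optn (0.81) and Slc8b1 (0.81). Nr3c1 and Errfi1 had 0, and their nearest were Glt8d1, Igsf5 and Nr1h3 (0.76, 0.75 and 0.74) and St3gal5, Tshz3 and Spsb1 (0.75, 0.72 and 0.72).

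Among the receptor's partners, several chaperones were higher after food. Of 17 listed chaperones, coregulators and hormone-supplying enzymes 15 were tested, and after refeeding 7 were higher and 1 lower in control mice, and 7 were higher and 0 lower in DT mice, beside 23.3% and 24.4% of all tested genes called in either direction. The same 7 were higher in both: the chaperones Hsp90aa1, Hsp90ab1 and Hspa8, their cochaperones Stip1 and Ptges3, and the immunophilins Fkbp4 and Ppid, which load or move the receptor. Hspa8 rose by log2 2.7 ± 0.27 in control mice and 2.42 ± 0.25 in DT mice (edgeR adjusted p = 1.75e-06 and 7.80e-07). Hsp90aa1 rose by 2.02 ± 0.19 and 1.57 ± 0.17, from 106 ± 7.97 to 428 ± 46.9 CPM in control mice (adjusted p = 7.31e-07 and 2.23e-06). Fkbp4, which opposes Fkbp5 on the receptor complex, rose by 1.05 ± 0.15 and 0.92 ± 0.14 (adjusted p = 4.65e-05 and 6.83e-05). Hsp90 and Hspa8 genes have near-identical copies, so their counts are uncertain where reads were shared.
The gene lower in control mice was the coactivator Ncoa2 (-0.55, adjusted p = 0.0110). The mineralocorticoid receptor Nr3c2, which also binds glucocorticoids, had -0.49 and -0.36 (adjusted p = 0.195 and 0.294). Hsd11b1 and Hsd11b2, the enzymes that activate and inactivate the hormone in tissues, did not pass the filter. The list's median log2 fold change was 0.63 in control and 0.37 in DT mice, beside -0.04 and -0.06 over all genes, and DT treatment called 0 of 15 in either feeding state.

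Of 23 further genes known to be induced by glucocorticoids 18 were tested. After refeeding 0 were higher and 5 lower in control mice, and 1 was higher and 2 were lower in DT mice, near the background of 23.3% and 24.4% of all tested genes. The sole one lower in both was Angptl4, a lipoprotein lipase inhibitor, with 4.27 ± 2.27 CPM in fasted and at most 0.232 CPM in refed control mice, and 2.42 ± 0.387 and at most 0.0991 CPM in DT mice (edgeR adjusted p = 4.39e-06 and 4.99e-06). Cdkn1a, a cell-cycle inhibitor, was lower in control mice by log2 -1.77 ± 0.31 (adjusted p = 0.000339), as were Nfkbia, the inhibitor of NF-κB, by -0.97 ± 0.20 (0.00143) and the metallothioneins Mt1 and Mt2 by -2.07 and -2.10 (0.00962 and 0.0179). In DT mice the clock gene Per1 was higher by 1.56 ± 0.31 (adjusted p = 0.000972), and Pdk4, a brake on pyruvate oxidation, was lower, from 0.531 ± 0.475 to 0.0329 ± 0.0806 CPM (adjusted p = 0.0277).
For Cdkn1a the values in DT mice were 19.1 ± 6.64 CPM fasted and 19.9 ± 8.08 CPM refed, against 37.1 ± 11.5 and 10.9 ± 4.46 CPM in control mice. The difference between the responses was log2 1.82 ± 0.41, with an unadjusted edgeR p of 0.00024 and an adjusted p of 0.445, and 0 of the 18 genes passed that test. The number higher in DT mice was 2 with DESeq2, limma voom, RLE scaling, the compared groups alone and the GC score as a covariate. Sgk1 and Angptl4, both glucocorticoid-induced in other tissues, thus moved in opposite directions after food. The list's median was -0.45 in control and -0.21 in DT mice, beside -0.04 and -0.06 over all genes. Of the 18 genes 2 had a value above 0 in control mice and 7 in DT mice.

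**Figure D4:**
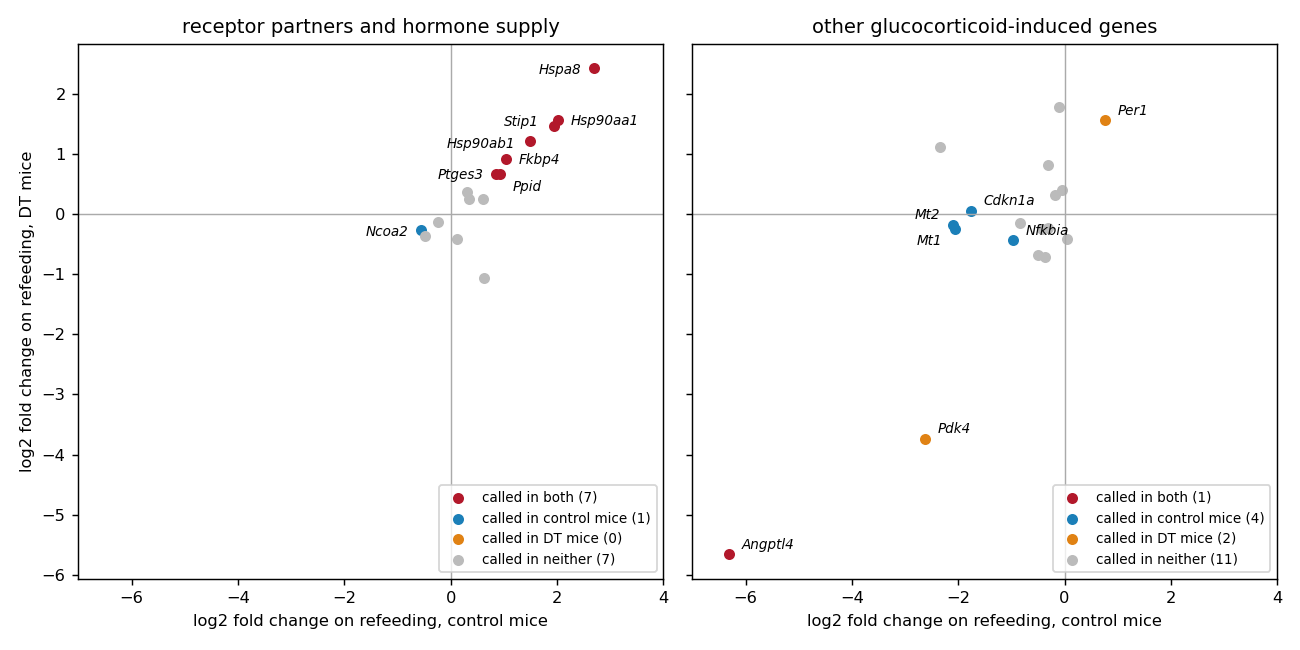
Log2 fold change on refeeding in control mice (horizontal) and in DT mice (vertical) for the tested receptor partners (left, 15 genes) and other glucocorticoid-induced genes (right, 18 genes), coloured by the comparison in which they passed. The 7 partners called in both lie in the upper right, and Ncoa2, called in control mice alone, has values below 0 in both. Angptl4 lies alone at the lower left of its panel.

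Counts in the lists around the single genes are to be read against the 23.3% of all tested genes called on refeeding in control mice and 24.4% in DT mice. Of 9 targets and regulators of SGK1, 0 were higher and 3 lower in control mice and 2 lower in DT mice: Ndrg1, a substrate of the kinase, by log2 -0.85 ± 0.16 and -0.97 ± 0.14 (edgeR adjusted p = 0.000465 and 5.82e-05), Rictor, a subunit of the complex that activates it, by -0.43 and -0.42 (0.0202 and 0.0125), and the ubiquitin ligase gene Nedd4l in control mice by -0.72 (0.00939). Of 14 genes of the EGF receptor pathway, in which Errfi1 acts, 10 were tested. The feedback inhibitor Spry4 was higher in both, by 3.40 ± 0.77 and 3.45 ± 0.71 (adjusted p = 0.00312 and 0.00134), and the ligand Hbegf was lower in both, by -1.28 ± 0.24 and -1.05 ± 0.22 (0.000479 and 0.00119). The ligand Egf was lower in control mice by -0.82 (0.00348).
Of 15 relatives of the induced genes 13 were tested, with 4 higher and 3 lower in control mice and 2 higher and 3 lower in DT mice. Fkbp11, an immunophilin of the endoplasmic reticulum, was higher by 1.66 ± 0.33 and 1.05 ± 0.29 (edgeR adjusted p = 0.000952 and 0.0126), and Tsc22d4 was lower by -0.48 and -0.34 (0.00727 and 0.0309). Tsc22d1 was lower in DT mice by -0.51 (0.00163). Of 15 immediate-early genes, which answer cAMP and calcium within minutes, 13 were tested, with 3 higher and 3 lower in control mice and 4 higher and 2 lower in DT mice. Sik1 was higher by 2.96 ± 0.60 and 4.13 ± 0.59 (adjusted p = 0.00113 and 4.52e-05) and Nr4a2 by 3.05 ± 0.51 and 2.09 ± 0.45 (0.000219 and 0.00179), while Junb was lower by -1.001 and -0.72 (0.00601 and 0.0239).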

How the data were processed

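RNA of sorted β-cells was measured in 22 mice. The authors deposited a table of raw read counts per gene symbol, with 1 column per mouse. The submitters' processing notes name HTSeq 0.9.1, STAR 2.7.2b and DESeq2 1.28.1 and, as genome, GRCm38.p6. How they were set, whether counting used strand, and which annotation served are not given in the sources used here. Per the labels' protocols, cDNA was amplified with a low-input kit and sequenced as single-end reads, with no molecular identifiers named, so reads are not independent molecules. The table had 0 columns of no mouse, and groups were taken from the sample titles.

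Of 52327 genes, 24242 had no count and 14064 passed filterByExpr. The counts were tested with edgeR 4.0.16 (R 4.3.3) using TMM scaling, 1 coefficient per group, robust quasi-likelihood tests over all 22 libraries, and Benjamini-Hochberg adjustment over all tested genes with a threshold of 0.05. The common biological coefficient of variation was 0.373. SEs were derived from the F statistic, and log2 CPM used a prior count of 2. Permutation tests of correlations were two-sided, with 100000 draws for 11 mice and exact enumeration for 6. The test was tried on simulated data with known changes and the same dispersion for every gene. That trial does not cover genes as variable as Cebpb, Fkbp5 and Cebpd, whose biological coefficients of variation were 1.15, 0.757 and 0.755. Positions, exon length and GC come from GENCODE M21 (GRCm38), and 97.8% of tested genes had a GC value.

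The 7 genes and all lists were chosen with earlier results of these data known. The 7 are all named; from other lists, at most the 6 genes with the smallest p among those past the threshold in a comparison are, and for likeness the 3 highest r, leaving out gene models without a name; 1 gene of the likeness results is not reported here. Ppid, Ptges3, Ncoa2 and Nr3c2 complete counts or were singled out after their values were seen. Alternatives were DESeq2 1.42.0, limma voom (3.58.1), 2 other scalings, no filter, the compared groups alone, leaving out mice, and, added after seeing the data, the GC score as a covariate. Sequence of Nr3c1 and Cebpd starts and of proteins was not used here.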

Additional observations from a re-analysis of the deposited data

How the results depend on the processing

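The number of the 7 genes called stayed at 0 in the 4 tests of DT against control mice under every alternative run. There the number of all genes called ran, over alternatives other than leaving out 1 mouse, from 0 to 43 in fasted mice (4 as reported), 1 to 175 in refed mice (5), 0 to 21 for the difference (1) and 8 to 167 for the average (29), with the highest values from DESeq2 or, in refed mice, without mice 13 and 20. For refeeding in control mice it was 1, and 2 with DESeq2 and 2 with the GC score as a covariate. For refeeding in DT mice it was 2, 3 with DESeq2, RLE scaling, upper-quartile scaling and the GC covariate, and 1 in the fit on the compared groups alone. With 1 mouse left out it ran from 1 to 3. Sgk1 kept its call in both under all alternatives. Uncalled values changed sign: with the GC covariate Fkbp5 on refeeding (-0.93 to 0.26 in control, -0.44 to 0.50 in DT mice); without mice 13 and 20 Nr3c1 on refeeding in DT mice (0.046); with limma voom the averaged DT effects of Fkbp5 (-0.097) and Errfi1 (-0.011). The Tsc22d3 difference of DT effects (-0.0036) became 0.037 with DESeq2, 0.016 with limma voom, 0.033 and 0.036 with RLE and upper-quartile scaling, 0.029 with no filter and 0.024 without mice 13 and 20. The cause was not tested. Leaving out 1 mouse also turned Fkbp5 (DT fasted -0.71 to 0.16; refeeding in DT mice -0.65 to 0.16; averaged DT effect -0.16 to 0.27), Cebpd (DT fasted -0.66 to 0.054; refeeding in control mice -0.022 to 0.46), Nr3c1 (refeeding in DT mice -0.10 to 0.053), Tsc22d3 and Sgk1 (difference of DT effects -0.083 to 0.099 and -0.019 to 0.40) and Errfi1 (averaged DT effect -0.044 to 0.15). Other scalings moved the median of all genes by at most 0.052. Cebpb, with 1 to 13 counts in most libraries, is limited by depth. No paired analysis was possible because every mouse number occurs once.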
